A study of Mus musculus with 18 samples.

Results

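The Toll-like receptor genes Tlr1, Tlr2, Tlr3, Tlr4, Tlr5, Tlr6, Tlr7, Tlr8, Tlr9 and Tlr13 were followed through bulk RNAseq of the mouse dorsal spinal cord. They are 10 of the 18667 gene names in the tables, and they were taken by name. Of the 34579 loci of each table, 14 carry one of these names, and for Tlr4, Tlr7, Tlr8 and Tlr9, which have a pair of rows each, the row with the higher mean level over the 6 groups was used. The samples were dorsal spinal cord tissue of segments L3-5 from C57BL/6 mice (C57BL/6N in the study's methods) aged 3 months. All mice carried a recombinant adeno-associated virus (rAAV) injected into the dorsal horn on both sides weeks earlier, so no group was free of surgery or virus. The virus expressed the control protein LacZ, or HDAC4 in its wild-type form (HDAC4 wt), a histone deacetylase that shuttles between nucleus and cytoplasm, or HDAC4 3SA, whose mutated phosphorylation sites keep it in the nucleus. The proteins carried a Flag tag, and the promoter that drove them is not given in the sources used here. One hindpaw received saline or Complete Freund's Adjuvant (CFA), an inflammatory mixture that contains killed mycobacteria, 24 h before collection. This gave 6 groups of 3 mice, 18 mice in all: LacZ saline, LacZ CFA, HDAC4 wt saline, HDAC4 wt CFA, HDAC4 3SA saline and HDAC4 3SA CFA. The tables hold 1 FPKM value per group (fragments per kilobase of gene model, relative to all mapped fragments), estimated by the authors over its mice. Single mice and sequencing depth are not given in the tables used here, so the values carry no error here. The authors' own test columns for CFA against saline were not used, and no difference is given with a test. Each vector was normalized in its own Cuffdiff run, so a difference between vectors cannot be told apart from one between runs, and levels across vectors are a description.

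Toll-like receptors are membrane proteins of innate immunity that recognise conserved microbial molecules and some products of damaged cells. One class sits on the cell surface and reads lipopeptides, lipopolysaccharide and flagellin. The other sits in endosomes, reads nucleic acids and depends on the chaperone Unc93b1 to get there. Most signal through the adaptor Myd88 to NF-kappaB and interferon regulatory factors, while Tlr3 signals through Ticam1 (TRIF) and Tlr4 uses both. In the central nervous system they are known mainly from microglia, the resident macrophages, and Tlr3 also from astrocytes. The surface receptors here were Tlr1, Tlr2, Tlr4, Tlr5 and Tlr6, and the endosomal ones Tlr3, Tlr7, Tlr8, Tlr9 and Tlr13.

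The data showed 3 patterns. In LacZ-expressing mice the family was sparse apart from Tlr3 and, less so, Tlr2. In all 4 groups that expressed HDAC4 wt or HDAC4 3SA, every member except Tlr5 stood above its LacZ value, by 1.54-fold to 10.7-fold. CFA values exceeded saline values by most in HDAC4 3SA-expressing mice. There 8 of the 9 members that passed a filter on low levels had a log2 ratio past 0.5, against 11.3% of the loci that passed it. Without the filter, which Tlr5 did not pass, the count was 8 of 10.

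Tlr3, the receptor for double-stranded RNA, had the highest level of the family in LacZ mice. Its values were 5.81 FPKM in LacZ saline, 5.63 in LacZ CFA, 9.50 in HDAC4 wt saline, 11.5 in HDAC4 wt CFA, 8.97 in HDAC4 3SA saline and 12.7 in HDAC4 3SA CFA. It made up 56.5% of the summed FPKM of the 10 genes in LacZ saline and 25.8% in HDAC4 wt CFA. The Tlr3 locus (chr8:45395601-45410667 on GRCm38, minus strand) is overlapped by the antisense gene Gm45542, and it is the one member locus with an overlapping gene in the annotation. The libraries were strand-specific, but the sources used here do not say which strand setting the counting used.

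Tlr2 (chr3:83836267-83841743, minus strand), the lipopeptide receptor, was the most abundant surface member. Its values were 1.58 FPKM in LacZ saline, 1.83 in LacZ CFA, 9.96 in HDAC4 wt saline, 12.5 in HDAC4 wt CFA, 7.55 in HDAC4 3SA saline and 12.9 in HDAC4 3SA CFA. Tlr2 was second to Tlr3 in the LacZ groups and in HDAC4 3SA saline, and first in the other 3 groups. In HDAC4 3SA CFA the pair stood at 12.9 and 12.7 FPKM, with no replicate spread by which to order them. Its partners Tlr1 (chr5:64924678-64933573, minus strand) and Tlr6 (chr5:64952034-64960074, minus strand) form heterodimers with it that read triacylated and diacylated lipopeptides. Tlr1 was at 0.315, 0.285, 2.10, 2.72, 1.53 and 2.84 FPKM in the same order of groups. Tlr6 was at 0.165, 0.231, 0.816, 0.917, 0.595 and 0.873 FPKM. Both partners were thus lower than Tlr2 in every group, and both were lowest in the LacZ groups.

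Tlr1 and Tlr6 are neighbours with partly identical coding sequence, which matters for reads of 50 bases. Of the 2976 possible 50-base windows of the Tlr1 transcript, 454 (15.3%) also occur in Tlr6, in 6 identical runs between codons 432 and 695 of the 795 codons of Tlr1. The longest run has 229 bases. The other 8 members share no such window with any other transcript, so identical sequence of this length is a limit for this pair alone.

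Tlr4 (chr4:66827586-66846777, plus strand), the lipopolysaccharide receptor, was at 0.271, 0.326, 0.984, 1.11, 0.701 and 1.39 FPKM. Tlr5 (chr1:182954801-182976006, plus strand), the flagellin receptor, was at 0.457, 0.475, 0.449, 0.498, 0.367 and 0.523 FPKM. Tlr4 followed the pattern of Tlr2 at a lower level, while Tlr5 kept within 0.367 and 0.523 FPKM and was the lowest member in all 4 HDAC4 groups.

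Tlr7 (chrX:167304599-167330558, minus strand), which reads single-stranded RNA, ranked just below Tlr2 and Tlr3 in all 6 groups. Its values were 0.652 FPKM in LacZ saline, 0.695 in LacZ CFA, 4.84 in HDAC4 wt saline, 6.45 in HDAC4 wt CFA, 3.67 in HDAC4 3SA saline and 7.42 in HDAC4 3SA CFA. Tlr13 (chrX:106143209-106160994, plus strand), the mouse receptor for bacterial ribosomal RNA, ranked just below Tlr7 in all 6 groups, at 0.564, 0.671, 3.80, 5.09, 2.78 and 5.76 FPKM. Tlr7 and Tlr13 kept their order in every group, with the HDAC4 values far above the LacZ values. Tlr9 (chr9:106221023-106229049, plus strand), which reads unmethylated CpG DNA, was at 0.404, 0.599, 2.44, 2.97, 1.65 and 3.13 FPKM. Tlr8 (chrX:167240942-167264284, minus strand), the neighbour and close relative of Tlr7, was at 0.0705, 0.143, 0.633, 0.739, 0.411 and 0.933 FPKM, and was the lowest member in both LacZ groups. At such levels a ratio rests on few fragments, and the count behind it is unknown.

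The rows not used had the same direction between LacZ and HDAC4 groups. The second rows of Tlr4, Tlr8 and Tlr9 give the same coordinates as the first, so how reads were divided between rows is unknown, and ranged from 0.0923 to 0.421, 0.0343 to 0.550 and 0.186 to 1.64 FPKM. The second Tlr7 row (chrX:167303298-167304181) lies beside the annotated gene and ranged from 0.0789 to 1.59 FPKM, lowest in LacZ saline and highest in HDAC4 3SA CFA.

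**Figure D1:**
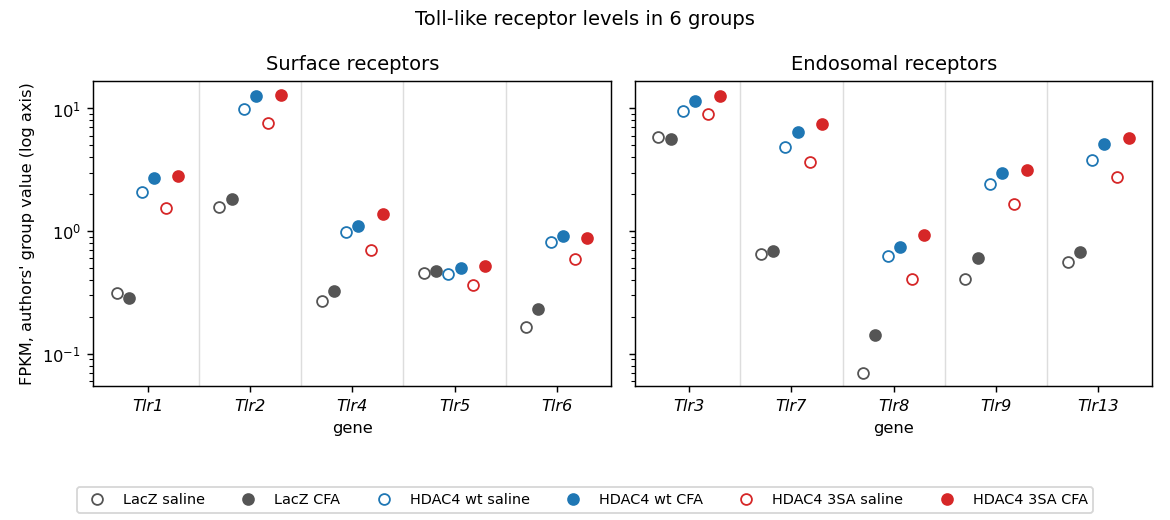
Level of each receptor gene in FPKM (log axis), 1 authors' value per group over its mice, open symbols for saline and filled for CFA, grey LacZ, blue HDAC4 wt and red HDAC4 3SA. Tlr3 stands at 5.63 to 12.7 FPKM, Tlr5 stays between 0.367 and 0.523, and the other 8 genes have both LacZ values below all 4 HDAC4 values.

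The tables hold 2 further mouse family members. Tlr12 was at 0.307 FPKM in LacZ saline and 1.63 in HDAC4 wt CFA, its highest value. Tlr11 was listed at 0 in LacZ saline and did not exceed 0.329 FPKM.

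CFA was first compared with saline within each vector, where both values come from 1 Cuffdiff run. A gene was counted as higher or lower when its log2 ratio, with 0.1 FPKM added to each value, passed 0.5 in that direction and its mean over the pair of groups reached 0.5 FPKM. The limit of 0.5 is the fold size the authors used, and here it is a rule of size and not a test.

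In LacZ-expressing mice 0 of the 5 members that passed the level filter were higher and 0 lower, against 5.14% of 21440 loci higher and 4.38% lower. The 10 log2 ratios ran from -0.11 for Tlr1 to 0.51 for Tlr8, with a median of 0.20 against 0.00 over all loci. Tlr8 passed the fold limit at 0.0705 and 0.143 FPKM, under the level filter, and Tlr9 came next at 0.47. Tlr3 had a ratio of -0.05. In LacZ mice the family thus differed little between paw treatments, and its 2 largest ratios belonged to lowly expressed endosomal genes.

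In HDAC4 wt-expressing mice 0 of the 9 members that passed the filter were higher and 0 lower, against 10.7% of 22069 loci higher and 6.78% lower. All 10 ratios were above 0, from 0.13 for Tlr5 to 0.41 for Tlr7 and Tlr13, with a median of 0.27 against 0.01 over all loci. The CFA value exceeded the saline value by 1.11-fold to 1.34-fold.

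In HDAC4 3SA-expressing mice 8 of the 9 members that passed the filter were higher and 0 lower, against 11.3% of 22036 loci higher and 5.92% lower. Tlr8, at 0.411 FPKM after saline and 0.933 after CFA, passed the filter through its CFA value. At any level the count was 8 of 10. The median log2 ratio of the 10 members was 0.86 against 0.01 over all loci. Tlr7 was at 3.67 FPKM after saline and 7.42 after CFA, 2.02-fold higher. Tlr13 was 2.07-fold and Tlr8 2.27-fold higher. These 3 genes had the largest log2 ratios of the family, 0.996 for Tlr7 and 1.02 for both others. Tlr4 was 1.99-fold, Tlr9 1.89-fold, Tlr1 1.85-fold and Tlr2 1.71-fold higher. Closest to the limit were Tlr3, just inside it at a log2 ratio of 0.50, and Tlr6, just outside at 0.49. Tlr5 had the smallest ratio, 0.42, and did not pass the level filter. It was not tested whether the ratio in HDAC4 3SA mice differs from those of the other vectors.

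The sizes of these ratios rest on both groups of a vector. In saline mice the summed level of the 10 members was 28.2 FPKM with HDAC4 3SA and 35.5 with HDAC4 wt. Tlr2 was at 7.55 against 9.96 FPKM and Tlr7 at 3.67 against 4.84. In CFA mice the sum was 48.5 FPKM with HDAC4 3SA and 44.5 with HDAC4 wt. There Tlr7 was at 7.42 against 6.45 FPKM, and Tlr6 went the other way at 0.873 against 0.917. The same comparison over all loci was not made. These values come from separate Cuffdiff runs, so the comparison is a description.

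**Figure D2:**
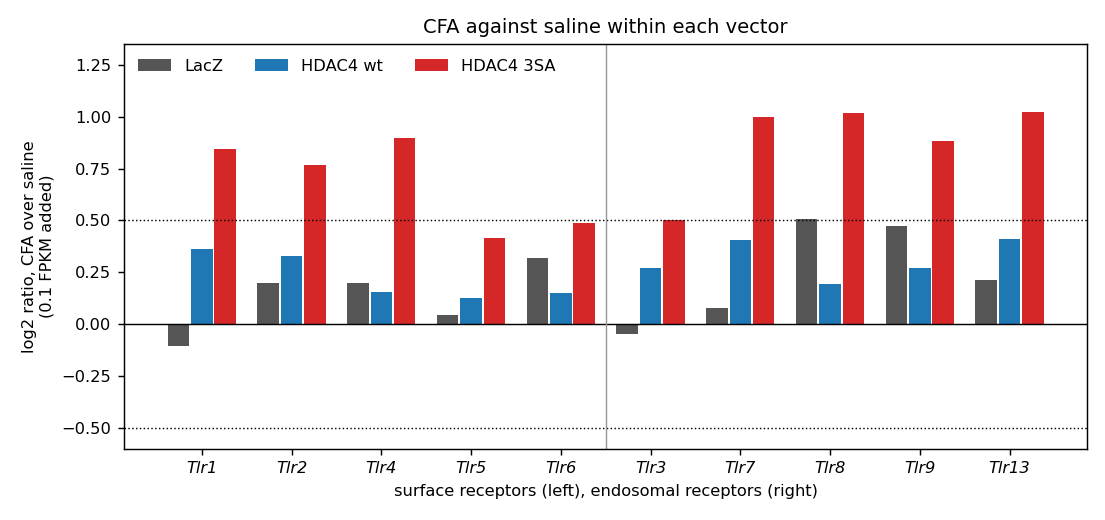
Log2 ratio of the CFA over the saline value (0.1 FPKM added) for each receptor gene in LacZ, HDAC4 wt and HDAC4 3SA mice, with dotted lines at 0.5 and -0.5. With HDAC4 3SA the ratios run from 0.42 for Tlr5 to 1.02 for Tlr13, and with HDAC4 wt all 10 lie between 0.13 and 0.41.

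Compared by class, the CFA values of surface and endosomal receptors differed from saline by similar factors. The surface total was 2.79 FPKM in LacZ saline and 3.14 in LacZ CFA, 14.3 and 17.8 with HDAC4 wt, and 10.7 and 18.5 with HDAC4 3SA. The endosomal total was 7.51 and 7.73 FPKM with LacZ, 21.2 and 26.7 with HDAC4 wt, and 17.5 and 29.98 with HDAC4 3SA. CFA over saline was thus 1.13-fold for surface and 1.03-fold for endosomal receptors with LacZ, 1.24-fold and 1.26-fold with HDAC4 wt, and 1.72-fold and 1.71-fold with HDAC4 3SA. Tlr3 carried much of the endosomal total, and without it the endosomal fold was 1.25 with LacZ, 1.30 with HDAC4 wt and 2.02 with HDAC4 3SA. The medians of the member log2 ratios, which give each gene the same weight, were 0.20 for surface and 0.21 for endosomal receptors with LacZ, 0.16 and 0.27 with HDAC4 wt, and 0.77 and 0.996 with HDAC4 3SA.

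The ratio of the surface to the endosomal total is taken within a group and does not depend on how a table was scaled. It was 0.372 in LacZ saline, 0.406 in LacZ CFA, 0.674 in HDAC4 wt saline, 0.665 in HDAC4 wt CFA, 0.614 in HDAC4 3SA saline and 0.618 in HDAC4 3SA CFA. By summed FPKM endosomal transcripts were in excess in every group, more so in the LacZ groups. With class means of log2 values, which weigh each gene equally, the excess was larger in the HDAC4 groups, at log2 ratios of -0.95 to -1.15 against -0.55 and -0.66 with LacZ. With Tlr3 left out, the ratio turned to 1.65, 1.49, 1.22, 1.17, 1.26 and 1.07 in the same order, a surface excess that was largest with LacZ. Tlr3 was 77.5% of the endosomal total in LacZ saline and 72.8% in LacZ CFA, and between 42.5% and 51.3% in the HDAC4 groups. Tlr2 was 56.7% and 58.1% of the surface total in the LacZ groups and between 69.6% and 70.5% in the HDAC4 groups. The side in excess thus turned with Tlr3 alone. It also rested on Tlr2, since with both of these left out the endosomal total was again the larger, by a log2 surface to endosomal ratio of -0.48 and -0.68 in the LacZ groups and -1.41 to -1.62 in the HDAC4 groups.

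**Figure D3:**
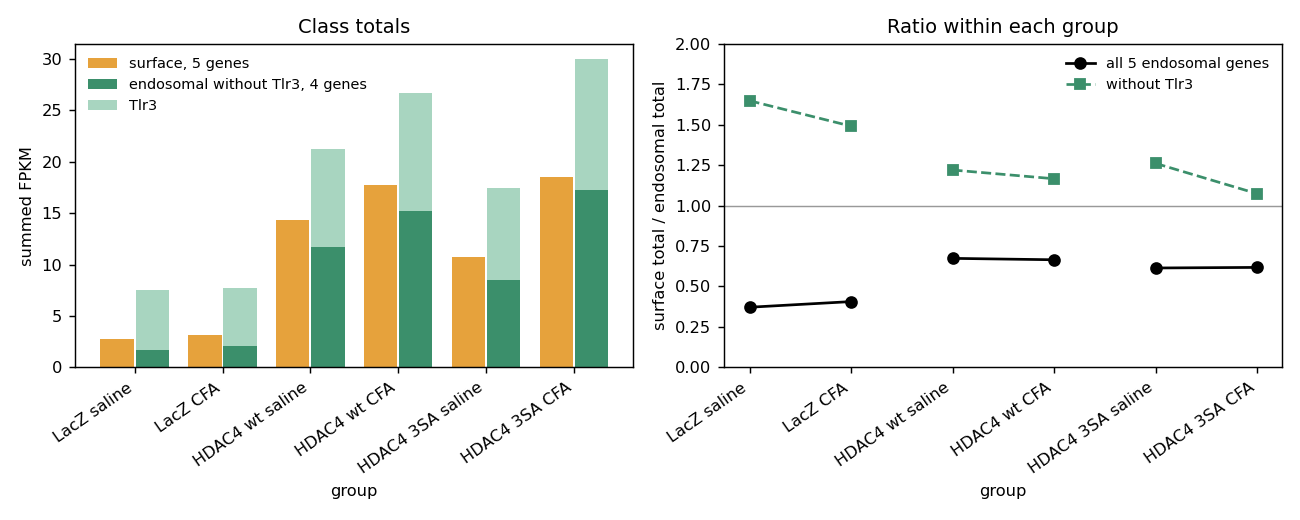
Left, summed FPKM of the 5 surface genes and of the 5 endosomal genes in each group, with the Tlr3 portion in pale green; right, the surface total over the endosomal total with and without Tlr3, saline and CFA joined within a vector. The ratio lies between 0.372 and 0.674 with Tlr3 and between 1.07 and 1.65 without it.

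Within each of the 9 members other than Tlr5, the folds over LacZ were larger than that gene's own folds between paw treatments. Tlr7 had the largest fold over LacZ in a single comparison, 10.7 in HDAC4 3SA CFA. It was 7.43-fold higher in HDAC4 wt saline, 9.28-fold in HDAC4 wt CFA, 5.63-fold in HDAC4 3SA saline and 10.7-fold in HDAC4 3SA CFA, and the next genes are given in that order of groups. Tlr1 was 6.65-fold, 9.54-fold, 4.87-fold and 9.94-fold higher. Tlr13 was 6.74-fold, 7.58-fold, 4.93-fold and 8.58-fold higher. These 3 genes and Tlr2, which was 6.30-fold, 6.87-fold, 4.78-fold and 7.06-fold higher, come from both classes. Tlr8 was 5.18-fold to 8.97-fold, Tlr9 4.09-fold to 6.04-fold, Tlr6 3.60-fold to 4.94-fold and Tlr4 2.58-fold to 4.27-fold higher. Tlr3 was 1.63-fold, 2.04-fold, 1.54-fold and 2.26-fold higher. Tlr5 was at 0.981, 1.05, 0.803 and 1.10 times its LacZ value. So the endosomal class held the gene with the smallest of the differences past the limit, Tlr3, and the surface class the gene without one, Tlr5.

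Of the members that passed the level filter, 7 of 7 were higher in HDAC4 wt saline than in LacZ saline, against 16.1% of 21705 loci. In HDAC4 wt CFA 8 of 8 were higher, against 15.6%. In HDAC4 3SA saline 6 of 6 were higher, against 13.3%, and in HDAC4 3SA CFA 9 of 9, against 18.1%. Low members pass the filter only where the HDAC4 value is high, so these counts leave out genes that did not differ, such as Tlr5, and are given beside the count at any level. That was 9 of 10 in each comparison, against 18.3%, 17%, 16.3% and 19.9% of 34193 loci in the order above. The median log2 ratio of all 10 members was 2.22, 1.96, 1.69 and 2.15, against 0.04, 0.02, 0.03 and 0.02 over all loci. A common set of 9714 loci above 5 FPKM in every group differed in its median by at most 0.03 on the log2 scale between groups. As totals, the surface class was 5.13-fold, 5.66-fold, 3.85-fold and 5.89-fold and the endosomal class 2.83-fold, 3.46-fold, 2.33-fold and 3.88-fold above LacZ in the order HDAC4 wt saline, HDAC4 wt CFA, HDAC4 3SA saline and HDAC4 3SA CFA. Without Tlr3 the endosomal fold was 6.93, 7.23, 5.04 and 8.18, each time above the surface fold, in which Tlr5 was kept. These comparisons share the LacZ groups and are not independent.

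**Figure D4:**
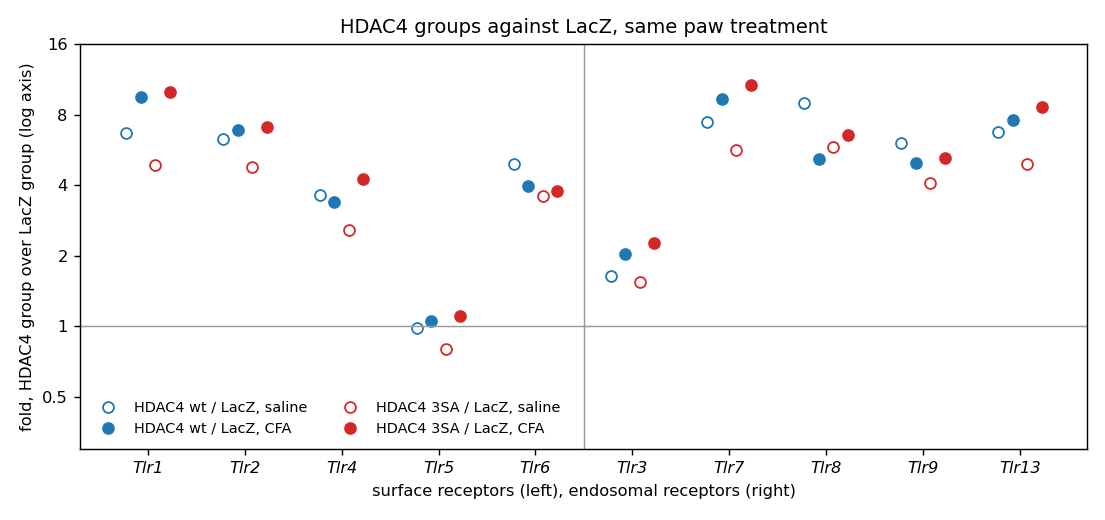
Fold of each receptor gene over the LacZ group of the same paw treatment (log axis), blue HDAC4 wt and red HDAC4 3SA, open for saline and filled for CFA. Tlr5 stays between 0.803 and 1.10, Tlr3 between 1.54 and 2.26, and the other 8 genes lie between 2.58 and 10.7.

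The tissue is a mixture, and a higher level in bulk RNA can come from more cells of a type or more RNA per cell, which cannot be told apart. The microglial list was set beside the receptors first, and other lists with a like pattern follow. All 13 of its matched genes were above 0 in every group, and their summed level was 183 FPKM in LacZ saline, 203 in LacZ CFA, 898 in HDAC4 wt saline, 1127 in HDAC4 wt CFA, 686 in HDAC4 3SA saline and 1250 in HDAC4 3SA CFA. The complement gene C1qa, its most abundant member, went from 37.5 FPKM in LacZ saline to 500.0 in HDAC4 3SA CFA. After CFA 0 of 13 were higher with LacZ, 0 with HDAC4 wt and 8 with HDAC4 3SA, against 5.14%, 10.7% and 11.3% of all loci. Against LacZ saline 10 of 13 were higher in either HDAC4 saline group, against 16.1% of loci with HDAC4 wt and 13.3% with HDAC4 3SA. The summed list differed between groups in the same direction as the receptors, and its part in their levels was not tested.

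Set against that list, the surface total, the other endosomal genes and Tlr3 had different patterns. The surface total per 1000 FPKM of the microglial sum was 15.2, 15.5, 15.9, 15.8, 15.7 and 14.8 in the order of the groups above. The 4 endosomal genes other than Tlr3 gave 9.25, 10.4, 13.1, 13.5, 12.4 and 13.8. Tlr3 gave 31.8, 27.8, 10.6, 10.2, 13.1 and 10.2. Against this sum the surface level thus varied little over the 6 groups, the endosomal level without Tlr3 was higher in the HDAC4 groups, and Tlr3 was lower there. The classes were not trimmed alike. Tlr3 was taken out of the endosomal total, while Tlr5, which differed little between groups, was kept in the surface total. A difference between the classes is therefore not shown by these sums. The surface and Tlr3 patterns depend on which genes stand for microglia. Against Tmem119, P2ry12, Siglech and Sall1 alone, 4 genes of resting microglia chosen after their values were seen, whose sum was 31.2 FPKM in LacZ saline and 51.6 in HDAC4 3SA CFA, the surface total per 1000 FPKM was 89.4, 107, 305, 337, 240.0 and 359. Against the same 4 genes Tlr3 gave 186, 191, 203, 218, 200.4 and 247, so it was no longer lower in the HDAC4 groups. The other 4 endosomal genes gave 54.2, 71.5, 250.1, 289, 190.3 and 334, again higher there.

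**Figure D5:**
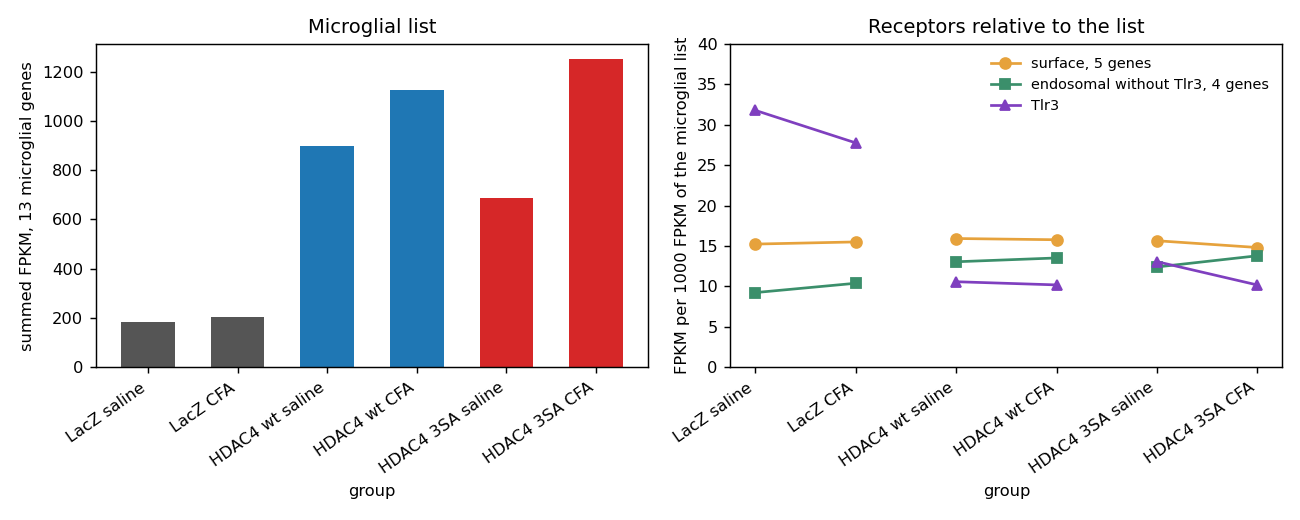
Left, summed FPKM of 13 microglial genes in each group; right, surface receptors, endosomal receptors without Tlr3, and Tlr3 in FPKM per 1000 FPKM of that sum, saline and CFA joined within a vector. The surface points stay between 14.8 and 15.9, while Tlr3 goes from 31.8 in LacZ saline to 10.2 in both HDAC4 CFA groups.

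Summed marker genes of other cell types differed between the groups as well. The sum of 6 matched monocyte and dendritic cell genes was 10.4-fold above LacZ saline in HDAC4 wt saline and 6.85-fold in HDAC4 3SA saline, carried by Ly6c2 and Itgax, while Flt3, chosen after its values were seen, was at 5.83, 3.34 and 4.59 FPKM in the 3 saline groups. The sum of 7 B cell genes was 12.9-fold and 9.33-fold higher, carried by Cd79a, Cd22 and Cd79b. Pax5 of that list, chosen after its values were seen, was at 0.298, 0.420 and 0.450 FPKM in the 3 saline groups. The sum of 8 T cell genes was 5.59-fold and 3.13-fold higher. After CFA the T cell sum was 1.22-fold higher with LacZ, 1.44-fold with HDAC4 wt and 1.83-fold with HDAC4 3SA, close to the 1.11-fold, 1.26-fold and 1.82-fold of the microglial sum. In the same order the monocyte and dendritic cell sum was 1.20-fold, 1.08-fold and 1.60-fold higher and the B cell sum 2.36-fold, 1.19-fold and 1.48-fold higher. The part of these cells in the receptor levels was not tested. Border macrophage genes, led by Pf4 and Mrc1, differed less, at 1.55-fold and 1.29-fold. The astrocyte sum stood at 1.45-fold in both, led by Gfap and Aqp4, but 4 of its 7 genes were below LacZ and the median log2 ratios were -0.22 and -0.14. Sums of endothelial genes stood at 1.21-fold and 1.17-fold, and of neuronal genes at 0.647-fold and 0.722-fold. The sum of neutrophil genes, led by S100a9 and S100a8, stood at 3.70-fold in HDAC4 wt saline and 5.53-fold in HDAC4 3SA saline over LacZ saline. After CFA these genes had another pattern. Their sum was 10.1-fold higher after CFA with LacZ, and 0.697-fold and 0.625-fold with HDAC4 wt and HDAC4 3SA. The part of neutrophils in the receptor levels was not tested either. Dorsal horn genes such as Penk and Tac1 and the neuronal gene Snap25 were present in all groups. The sum of 6 matched dorsal horn genes stood at 1.14-fold in HDAC4 wt saline and 0.959-fold in HDAC4 3SA saline over LacZ saline. Over LacZ CFA it stood at 0.823-fold in HDAC4 wt CFA and 0.620-fold in HDAC4 3SA CFA.

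The genes whose profiles over the 6 groups lay closest to a class total are given by the root mean square difference of centred log2 values, among 15922 genes. For the surface total they were Ikzf1, a leukocyte transcription factor (0.033), Hpgds, a prostaglandin D synthase (0.037), Parp9 (0.041), the cathepsin Ctsh (0.045) and Pld4 (0.047). For the endosomal total they were Apbb1ip, an integrin regulator (0.023), the hexosaminidase gene Hexa (0.047), Hgf (0.048), Itga5 (0.054) and the lysosomal mannosidase gene Man2b1 (0.055). Ikzf1 was at 0.838 FPKM in LacZ saline and 5.92 in HDAC4 3SA CFA, and Apbb1ip at 3.74 and 15.3.

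The pathway around the receptors was read from 109 genes in 9 lists, of which 102 were matched, the receptors included. Among 9 co-receptors and ligand carriers, 2 of 7 that passed the filter were higher after CFA with LacZ, 1 of 9 with HDAC4 wt and 6 of 9 with HDAC4 3SA, and none was lower. The median log2 ratio was 0.30 with LacZ, 0.22 with HDAC4 wt and 0.81 with HDAC4 3SA. Lbp, which carries lipopolysaccharide to Cd14 and Tlr4, was the one gene of this list past the limit in all 3 vectors, with log2 ratios of 1.10, 1.05 and 1.07. Unlike the receptors, Lbp had about the same CFA ratio in each vector. Cd180, a receptor-like regulator of lipopolysaccharide responses, had ratios of 0.14, 0.22 and 1.09, and its partner Ly86 of 0.57, 0.21 and 0.91. Tril, an accessory protein of Tlr3 and Tlr4, had ratios of -0.07, 0.20 and 0.07 and stood between 20.7 and 24.1 FPKM in all groups.

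Of the genes that bring endosomal receptors to their place or cut them to the active form, 0 of 9 were higher with LacZ, 0 of 9 with HDAC4 wt and 5 of 9 with HDAC4 3SA, with medians of 0.08, 0.22 and 0.51. Unc93b1 was at 6.93 FPKM in LacZ saline, 8.56 in LacZ CFA, 35.8 in HDAC4 wt saline, 42.0 in HDAC4 wt CFA, 25.0 in HDAC4 3SA saline and 43.5 in HDAC4 3SA CFA, the same order of groups as for Tlr7 and Tlr13, and also for Tlr2, Tlr4 and the microglial sum. The protease gene Ctss, the most abundant of the list, had CFA ratios of 0.18, 0.40 and 0.98, and Ctsb of 0.02, 0.24 and 0.71.

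Of the adaptors and proximal kinases, 0 of 23 passed the limit with LacZ and with HDAC4 wt, and with HDAC4 3SA 6 were higher and 1 lower, and the medians were -0.04, 0.20 and 0.19. The most abundant, the ubiquitin-conjugating enzyme gene Ube2n, had ratios of -0.10, -0.11 and -0.18. Pik3ap1, an adaptor between receptors and PI3 kinase, had ratios of 0.49, 0.34 and 1.08, and the kinase gene Ikbke of 0.16, 0.42 and 1.01. The lower gene was Ikbkg, the regulatory subunit of the IKK complex, at -0.81 with HDAC4 3SA. Myd88, named here after its values were seen, had ratios of -0.06, 0.22 and 0.60.

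Of 13 transcription factors, 3 were higher with LacZ, 1 with HDAC4 wt and 6 with HDAC4 3SA, with medians of 0.25, 0.25 and 0.47. Irf7, which acts downstream of Tlr7 and Tlr9, was the one past the limit in all 3 vectors, with ratios of 0.57, 0.67 and 1.23. It was at 1.31 FPKM in LacZ saline and 49.95 in HDAC4 3SA CFA. Spi1, which encodes the myeloid factor PU.1, had ratios of 0.79, 0.36 and 0.95, and Rela, an NF-kappaB subunit, of 0.14, 0.13 and 0.29.

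Among inhibitors, 1 of 14 was higher with LacZ, 0 of 15 with HDAC4 wt and 5 of 15 with HDAC4 3SA, with medians of 0.18, 0.26 and 0.26. Tollip and Nfkbia, which hold back receptor kinases and NF-kappaB and were the most abundant, did not pass the limit in any vector, at 0.03, -0.02 and -0.08 and at 0.24, 0.41 and 0.17. Socs3 had ratios of 0.69, 0.27 and 0.64, and the inhibitory receptor gene Cd300a of 0.29, 0.32 and 1.10.

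Of the genes known as output of NF-kappaB and interferon signalling, 4 of 8 were higher with LacZ, 2 of 15 with HDAC4 wt and 12 of 14 with HDAC4 3SA, with medians of 0.48, 0.35 and 0.84. The chemokine gene Ccl5, with ratios of 1.40, 0.84 and 1.09, and Ptgs2, the inducible cyclooxygenase, with ratios of 0.65, 0.75 and 1.04, passed the limit in all 3 vectors. Ptgs2 was low, at 0.456 FPKM in LacZ saline and 1.49 in HDAC4 3SA CFA. The ratio with HDAC4 3SA differs from the paper's QRT-PCR, in which CFA induced Ptgs2 with LacZ and HDAC4 wt only. The interferon-induced genes Ifit3 and Isg15 had ratios of 0.52, 0.44 and 1.08 and of 0.44, 0.38 and 0.999. With HDAC4 3SA the share of genes higher was above the 11.3% of all loci in each of these 6 lists. With HDAC4 wt it was below the 10.7% of all loci for trafficking genes, adaptors, transcription factors and inhibitors, and with LacZ below 5.14% for trafficking genes and adaptors. The lists, like the receptors, were chosen with results of these data known.

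RefSeq windows of the 250 bases before a transcript start on GRCm38.p6 were held for 8 members, and none was held for Tlr4 and Tlr7. Exact matches on both strands were sought for the PU.1 core GAGGAA, the AP-1 site TGANTCA, the NF-kappaB half-core GGNNTTTCC and the interferon element core GAAANNGAA. Of 32851 such windows of all genes, 23.3% hold the PU.1 core, 6.75% the AP-1 site, 4.93% the NF-kappaB half-core and 7.13% the interferon element core. Tlr13, Tlr9 and Tlr1 are shown because their windows hold the PU.1 core on the strand of the gene, as printed. Tlr3 and Tlr5 are shown as the 2 genes with the smallest folds over LacZ. The choice was made after values and matches were seen. Capitals mark the matches, and each window ends at the base before the start.
Tlr13 (chrX:106143025-106143274, plus strand): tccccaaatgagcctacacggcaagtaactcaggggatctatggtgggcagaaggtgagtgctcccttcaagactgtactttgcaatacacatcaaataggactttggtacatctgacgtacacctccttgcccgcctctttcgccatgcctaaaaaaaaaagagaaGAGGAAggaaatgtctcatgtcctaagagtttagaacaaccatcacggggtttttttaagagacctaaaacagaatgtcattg
Tlr9 (chr9:106222348-106222597, plus strand): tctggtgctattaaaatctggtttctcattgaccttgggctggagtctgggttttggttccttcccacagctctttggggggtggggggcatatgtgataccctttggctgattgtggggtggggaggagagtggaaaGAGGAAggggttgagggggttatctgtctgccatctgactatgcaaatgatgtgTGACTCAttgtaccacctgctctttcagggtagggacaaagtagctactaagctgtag
Tlr1 (chr5:64933559-64933808, minus strand): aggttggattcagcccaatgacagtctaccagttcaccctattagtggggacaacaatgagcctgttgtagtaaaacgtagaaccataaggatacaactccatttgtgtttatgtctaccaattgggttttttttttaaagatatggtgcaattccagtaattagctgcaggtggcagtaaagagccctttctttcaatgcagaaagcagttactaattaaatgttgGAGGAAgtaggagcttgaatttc
Tlr3 (chr8:45410381-45410630, minus strand): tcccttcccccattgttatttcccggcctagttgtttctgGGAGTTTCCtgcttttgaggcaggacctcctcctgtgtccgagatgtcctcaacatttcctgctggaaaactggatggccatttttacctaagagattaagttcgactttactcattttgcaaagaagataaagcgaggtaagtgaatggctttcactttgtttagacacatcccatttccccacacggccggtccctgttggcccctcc
Tlr5 (chr1:182954538-182954787, plus strand): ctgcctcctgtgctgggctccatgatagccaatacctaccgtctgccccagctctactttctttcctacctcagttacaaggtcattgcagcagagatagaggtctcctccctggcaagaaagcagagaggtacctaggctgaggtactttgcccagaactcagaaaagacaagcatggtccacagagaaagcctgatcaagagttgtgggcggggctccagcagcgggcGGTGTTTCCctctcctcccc

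The PU.1 core begins 83 bases before the start in Tlr13, 112 in Tlr9 and 23 in Tlr1. The second Tlr1 window, for a start further into the gene, holds none of the motifs. The Tlr9 window also holds an AP-1 site at 58 bases before the start. In Tlr3 and Tlr5 the capitals are the NF-kappaB half-core, at 210 and 20 bases. The Tlr3 window belongs to a start inside the annotated gene. So does the Tlr13 window, which reaches past the annotated gene start at chrX:106143204. By a few bases the Tlr1 window shown does so too. Tlr8 holds a PU.1 core and an interferon element core on the strand opposite to the gene, and one of the 2 Tlr6 windows, for a start inside the annotated gene, holds 2 overlapping interferon element cores. Tlr2, with folds of 4.78 to 7.06 over LacZ, and Tlr6 hold no PU.1 core in these windows, so the motif was not found in every member with a large fold. A match of these letters is a description of the sequence and not a binding site.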

How the data were processed

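Poly-A RNA libraries of 18 mice, 3 per group, were sequenced by the authors as single-end reads of 50 bases and processed with Bowtie, TopHat, Cufflinks, Cuffmerge and Cuffdiff on mm10/GRCm38 with Ensembl annotation. The authors deposited 3 Cuffdiff tables, 1 per vector, with 1 FPKM value per group, scaled to gene length and mapped fragments. The tables also hold the authors' fold changes, test statistics, p-values, q-values and calls, which were not used. Since FPKM per mouse, read counts and depth are not in the tables used here, no test was computed and the precision of each value is unknown.

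The log2 ratio of values with 0.1 FPKM added was taken as past the limit beyond 0.5, among loci whose mean over the compared pair reached 0.5 FPKM. Between vectors 386 loci whose place differed between tables were left out. Folds are ratios without the added constant. Named from each pathway list were the 2 most abundant genes, the gene with the largest ratio per vector and those past the limit in all 3 vectors, from each marker list the 2 most abundant genes, and for each class total the 5 closest profiles. Others are said to be chosen after their values were seen. A few list genes covered by the rule are not reported here by name. The members and the lists were chosen with earlier results of these data known. With no replicate spread, a result was taken as moved under an alternative when it crossed the limit of 0.5 or changed by over 1.5 times. Gene models are from GENCODE M21. Scripts ran in Python 3.11.15 with pandas 2.3.3, numpy 2.4.6 and matplotlib 3.10.9 and were tested on simulated data.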

Additional observations from a re-analysis of the deposited data

How the results depend on the processing

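The count of members higher after CFA with LacZ, 0, became 1 with 0.01 FPKM added, with a minimum of 0.1 FPKM and with no level filter. With HDAC4 3SA the count of 8 became 5 with 1 FPKM added and 2 with a log2 limit of 1. On the log2 scale, the endosomal total over LacZ, without Tlr3 and in the 2 alternatives that also drop surface members (the most abundant of each class, or Tlr2, Tlr3 and Tlr5), was 2.79, 2.85, 2.33 and 3.03 in HDAC4 wt saline, HDAC4 wt CFA, HDAC4 3SA saline and HDAC4 3SA CFA. Dropping only Tlr3 reversed the log2 surface to endosomal ratio to 0.72, 0.58, 0.29, 0.22, 0.34 and 0.10 in the order of the 6 groups. Dropping both Tlr2 and Tlr3, the most abundant of each class, gave -0.48, -0.68, -1.43, -1.54, -1.41 and -1.62. Dropping Tlr2, Tlr3 and Tlr5, an alternative chosen after seeing the data, gave -1.17 and -1.32 in the LacZ groups and -1.59, -1.68, -1.59 and -1.76 in the HDAC4 groups. Class means of log2(FPKM + 0.1) in place of sums gave surface differences from LacZ of 1.66, 1.75, 1.28 and 1.83, and a surface to endosomal ratio of -0.55 in LacZ saline and -0.66 in LacZ CFA against -0.97, -1.05, -0.95 and -1.15 in the HDAC4 groups. Centring on loci above 5 FPKM, summing all rows of a name, counting Tlr4 as endosomal and adding Tlr11 and Tlr12 moved no class total or ratio across the limit or by over 1.5 times, and centring took the HDAC4 3SA count from 8 to 7. No paired analysis was possible because the tables carry no columns per mouse, and for the same reason no mouse could be left out. The paper states a minimum read number for the sequencing but no depth for each library, which limits what can be said of the low members.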
